A study of Mus musculus with 55 samples.

Results

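Mouse ES cells that carry the CCNA-GFP cell cycle reporter were compared at the burst of pre-mRNA, 50 to 60 min after release from mitotic arrest, with the arrested cells they came from. The comparison takes 6 of the 55 libraries of the series. These are CCNA-GFP at 60 min in replicates 1 and 2 and at 50 min in replicate 3, each set against the mitotic library of its own replicate number. All 9911 genes listed for CCNA-GFP entered the comparison. The authors had listed genes by their level in asynchronous cells or after release (a mean above 0.5 TPM). A gene can thus be listed because it is high after release, and one seen only in mitosis would not be listed, so the table itself favours genes that rose over genes that fell.

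CCNA-GFP cells derive from E14Tg2a, an ES cell line of strain 129/Ola, were grown in serum with LIF, and express a cyclin A-GFP fusion that marks cell cycle stage. Mitotic cells had received 10 µM of the CDK1 inhibitor RO-3306 for 4 h and 50 ng/ml of the microtubule poison nocodazole for 4 h before shake-off, and the burst libraries came from cells treated in the same way and then released for 60 or 50 min. Asynchronous CCNA-GFP cells (3 libraries) carried the same reporter and saw neither drug. CTCF-AID cells without IAA, E14Tg2a cells whose CTCF carries a degron that stays inactive without auxin, supplied a matched set of 3 mitotic and 3 burst libraries (60, 60 and 50 min). The replicate 3 burst library differs from the other two in its time point, so that time and replicate cannot be told apart. The labels do not say that the replicates were separate cultures, whereas the methods call them independent replicates. Each SD below is the spread between these libraries, whereas the SE of a single gene rests on a spread shared by all genes.

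Chromosomes are condensed in mitosis, most RNA polymerase II leaves them, and transcription resumes as cells enter G1. Pre-mRNA still holds its introns and is spliced soon after it is made, which is why its level is read as a measure of ongoing transcription. A polymerase that starts at a promoter needs time to cross the gene, and short genes are completed before long ones. ES cells divide fast, with a short G1 phase, and are held in their undifferentiated state by factors such as Oct4, Sox2 and Nanog.

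The values are TPM, a length-scaled share of all transcripts of a library, of the pre-mRNA isoform of each gene, and they hold no read counts, so that the depth behind a value is unknown. The listed TPM summed to 14734, 13747 and 17245 in the mitotic libraries of replicates 1, 2 and 3 and to 42576, 30992 and 36035 in the burst libraries. Every burst library lay above every mitotic one, and the ratio within a replicate was 2.41 ± 0.42 (SD, n = 3). Of 10 ES cell markers 9 were listed (Sox2 was not), and all 9 were called higher in the burst, beside 83.9% of all genes. Their summed level was 39.0 to 53.8 TPM in mitosis and 102 to 131 TPM in the burst. At the same total of listed TPM 2 were called higher and 2 lower, beside 33.3% and 32.7% of all genes. Markers of other cell types were fewer and lower, and some of them, like most genes, were called higher in the burst. Trophoblast had 4 of 8 markers listed, with a summed level of 1.18 to 3.22 TPM in mitosis and 4.68 to 11.3 TPM in the burst. All 4 were called higher (3 higher and 0 lower at the same total). Neural ectoderm had 3 of 6, all called higher (1 higher and 1 lower at the same total), at 2.96 to 3.69 TPM and 5.90 to 9.62 TPM. Mesoderm had 2 of 6 with 1 called higher (0 higher and 1 lower at the same total), at 0.82 to 1.16 TPM and 2.04 to 2.37 TPM. Primitive endoderm had 2 of 9 with neither called (0 higher and 2 lower at the same total), at 1.23 to 1.55 TPM and 1.06 to 1.71 TPM. Fibroblasts had 0 of 8, and the part of these cell types in any result was not tested. In bulk libraries fewer cells that transcribe a gene and less RNA per cell cannot be told apart.

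Pre-mRNA of most genes rose. The library median of log2(TPM + 1) was 0.93, 0.87 and 1.05 in the mitotic libraries and 1.93, 1.61 and 1.71 in the burst libraries, and the groups did not overlap. The difference was 0.80 ± 0.18 (SD, n = 3 pairs), with p = 0.25 in an exact sign-flip test over the pairs and p = 0.1 in an exact two-sided permutation test of 3 against 3, each the smallest p that its design can give. Gene by gene, the median log2 fold change on the TPM + 1 scale was 0.71, a 1.63-fold rise, and the middle of the distribution ran from 0.37 (lower quartile) to 1.08 (upper quartile). That median was 1.17 with a pseudocount of 0.1 and 0.36 with each library divided by its own factor (the multiplier of its rounding step). Dividing by these factors, 2.64 to 3.81 in the 6 libraries, also lowers every value against the pseudocount of 1. With libraries brought to a common factor, a scaling chosen after seeing the data, the median was 0.68. In single pairs the median was 0.92 in replicate 1, 0.64 in replicate 2 and 0.56 in replicate 3. A change above 1 was seen for 2922 genes and above 2 for 101 genes, whereas no gene fell by more than 1. In limma, at an adjusted p under 0.05, 8315 of 9911 genes (83.9%) were called higher and 42 (0.424%) lower, and 8981 genes (90.6%) were higher in all 3 pairs against 228 (2.30%) lower in all 3. These calls lean on a variance shared across genes, and with each gene's own variance alone, an alternative chosen after seeing the data, 3829 genes were called higher and 43 lower.

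Because nearly everything rose, a second scale was used, on which each library was brought to the same total of listed TPM. On it the median change was 0.01, and a gene that rose less than the bulk of genes has a negative value. The same limma fit then called 3305 genes (33.3%) higher and 3236 (32.7%) lower, and with each gene's own variance alone 850 and 1241. In what follows, a change at the same total is a change relative to the other listed genes, and adjusted p-values of single genes are those of this second limma fit unless said otherwise. Those given for a gene without 1 replicate, with its own variance alone or with all 19 libraries are of the scale as deposited.

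**Figure D1:**
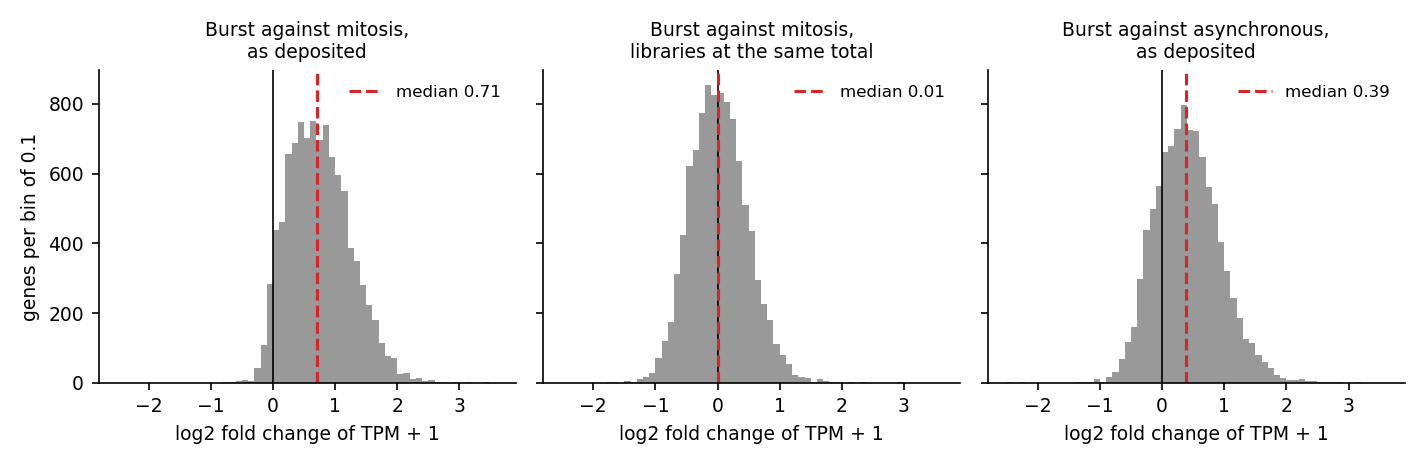
Number of genes (vertical axis, bins of 0.1) by log2 fold change of TPM + 1 (horizontal axis) for the burst against mitosis as deposited, the burst against mitosis with libraries at the same total, and the burst against asynchronous cells as deposited. The dashed red line is the median over 9911 genes, at 0.71, 0.01 and 0.39, and the solid line is 0; in the first panel nearly the whole distribution lies to the right of 0.

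On the log2(TPM + 1) scale as deposited, the steepest rise among the genes named by rule was that of Cd68, a lysosomal glycoprotein best known from macrophages. Cd68 pre-mRNA stood at 1.88, 1.56 and 2.08 TPM in the mitotic libraries of replicates 1, 2 and 3 and at 24.4, 21.0 and 27.7 TPM in the burst libraries (log2 fold change 3.15 ± 0.17, SE; 2.15 at the same total, adjusted p = 9.17e-06). All 3 burst values were far above all mitotic ones, and the asynchronous cells, at 1.83, 1.29 and 2.73 TPM, overlapped the mitotic range. Polg2, which encodes the accessory subunit of the mitochondrial DNA polymerase, went from 1.46, 1.20 and 1.55 TPM to 16.1, 14.1 and 17.1 TPM (2.80). Atp1b1, the beta subunit of the sodium pump, went from 1.43, 1.56 and 2.14 TPM to 20.9, 14 and 17.8 TPM (2.77). For both genes the groups stood apart, and asynchronous Atp1b1, at 4.06, 3.09 and 5.35 TPM, lay between them.

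Dvl2, a cytoplasmic transducer of Wnt signals, rose from 1.25, 1.33 and 1.32 TPM to 15.2, 12.6 and 12.1 TPM (log2 fold change 2.63), and Fzd5, a Wnt receptor, from 2.06, 1.59 and 1.32 TPM to 15.8, 13.2 and 14.9 TPM (2.56). Peg3, an imprinted zinc finger gene expressed from the paternal allele, rose from 1.29, 1.89 and 1.43 TPM to 18.2, 15.4 and 12.2 TPM (2.67). The remaining genes of the 10 were the spliceosome component Syf2 (2.61), the phosphoesterase gene Tmppe (2.58), the brain creatine kinase gene Ckb (2.58) and Rbm4, a regulator of splicing. Rbm4 is listed at 0 in all 3 mitotic libraries and at 8.52, 4.03 and 4.86 TPM in the burst, so no fold is given for it and its place among the 10 depends on the pseudocount. In these 10 genes no burst value overlapped a mitotic one, and each was also called higher at the same total, with log2 changes from 1.58 (Fzd5) to 2.15 (Cd68) in the 9 genes other than Rbm4. The rule leaves out microRNA, snoRNA and histone symbols, which left out Mir20a (3.43) and Hist1h2br (2.92).

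**Figure D2:**
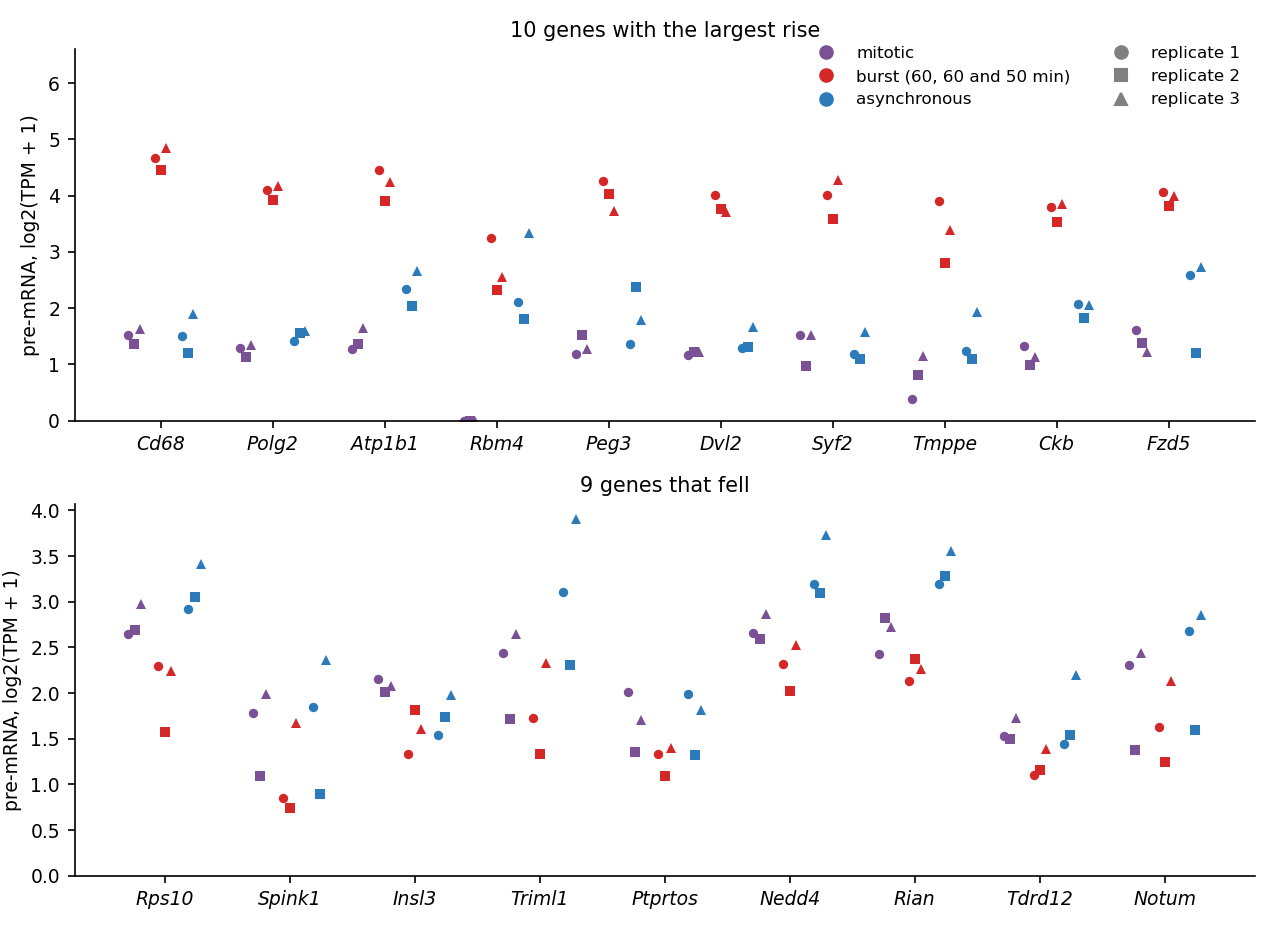
Pre-mRNA as log2(TPM + 1) (vertical axis) in the mitotic (purple), burst (red) and asynchronous (blue) libraries of CCNA-GFP, replicates 1, 2 and 3 as circles, squares and triangles, for the 10 genes with the largest rise (upper panel) and the 9 named genes that fell (lower panel). Cd68 burst values lie between 21.0 and 27.7 TPM against at most 2.08 TPM in mitosis, whereas for the genes that fell the burst and mitotic points lie close together and overlap in several genes.

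Few genes fell. Of the 42 genes called lower, 10 were lower in all 3 pairs with at least 2 TPM in mitosis, and 9 of these are named here, Mir298 (-0.57) being left out by its symbol. Rps10, a protein of the small ribosomal subunit, had the largest fall, from 5.26, 5.45 and 6.89 TPM to 3.92, 1.98 and 3.73 TPM (log2 fold change -0.73 ± 0.17, SE; adjusted p = 4.41e-05 as deposited in limma). The Rps10 groups did not overlap, although without replicate 2 the change was -0.54 and was no longer called (adjusted p = 0.12). Nedd4, a ubiquitin ligase, fell from 5.30, 5.02 and 6.30 TPM to 4.00, 3.08 and 4.76 TPM (-0.41). Rian, an imprinted long noncoding RNA expressed from the maternal allele, fell from 4.39, 6.08 and 5.62 TPM to 3.39, 4.17 and 3.81 TPM (-0.40). In both of these genes too the burst values lay below the mitotic ones without overlap.

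The other genes that fell were Spink1, a protease inhibitor (-0.53), Insl3, a peptide hormone of the insulin family (-0.50), Triml1 (-0.47), the antisense gene Ptprtos (-0.41), Tdrd12, which acts in the piRNA pathway (-0.37), and Notum, an extracellular inhibitor of Wnt proteins (-0.37). Insl3 lies within Jak3 on the same strand, and reads of these genes cannot be told apart. These falls were small. Spink1 alone kept its call in each fit that left out 1 replicate: 1 of the 9 genes lost it without replicate 1 (Notum), 7 without replicate 2 (Rps10, Triml1, Ptprtos, Nedd4, Rian, Tdrd12 and Notum, at log2 changes from -0.34 for Nedd4 to -0.54 for Rps10) and 6 without replicate 3 (Insl3, Ptprtos, Nedd4, Rian, Tdrd12 and Notum, from -0.37 for Rian to -0.51 for Insl3). With each gene's own variance alone 7 of the 9 lost their call, Spink1 among them (limma adjusted p from 0.062 for Nedd4 to 0.17 for Notum), and only Rian and Tdrd12 kept it (0.048 and 0.039). With libraries at the same total all 9 were called lower, from -1.17 (Tdrd12) to -1.77 (Rps10).

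The rise was also read by the function of the genes, in 21 lists from pluripotency factors to oxidative phosphorylation. As deposited, each of the 21 lists had a median above 0 and above that of all genes, and between 85% and 100% of listed members were called higher, beside 83.9% of all genes. These shares are close to the background or little above it, so the lists differ mainly in what they show at the same total, where 33.3% of all genes were called higher and 32.7% lower.

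**Figure D3:**
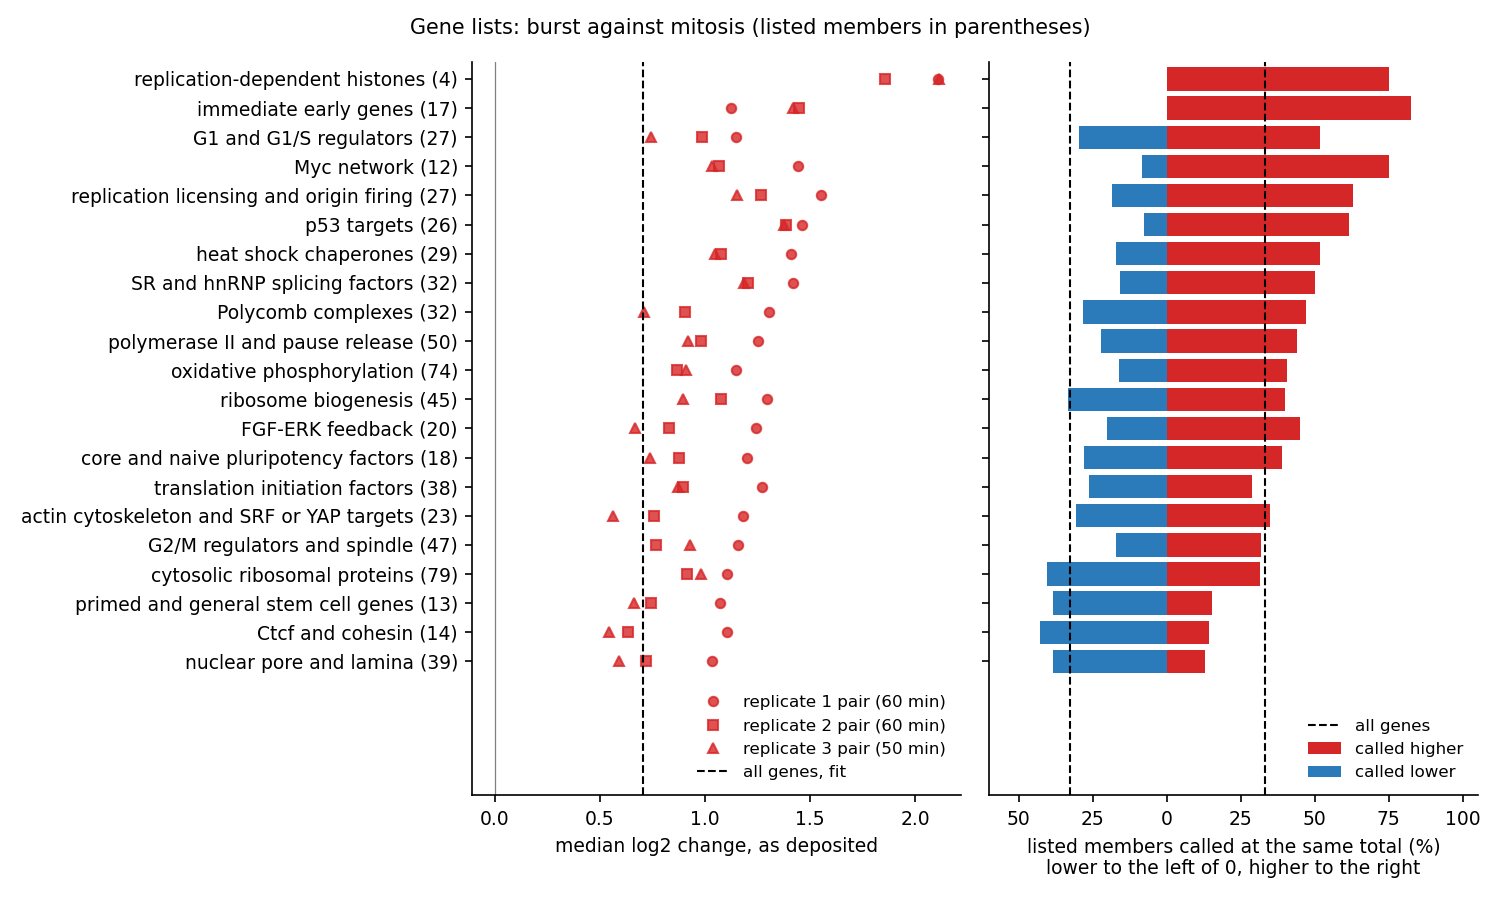
Left, median log2 change of TPM + 1 in each gene list, as deposited, within the pairs of replicates 1 and 2 (60 min, circles and squares) and 3 (50 min, triangles), with the median of all genes in the fit dashed; right, share of listed members called higher (red) or lower (blue) by limma with libraries at the same total, with the shares of all genes, 33.3% and 32.7%, dashed. Lists are ordered by their median at the same total, from the histones and immediate early genes (14 of 17 called higher) down to nuclear pore and lamina (5 of 39 higher, 15 lower).

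Immediate early genes, which answer growth signals within minutes, were called higher in 17 of 17 listed members (median log2 fold change 1.29), and at the same total 14 were higher and 0 lower (median 0.64), with 3 not called. The other 13 members of the list are not in the table.

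Myc, the transcription factor that drives cell growth and a member of both the immediate early and the Myc network list, stood at 0.63, 0.73 and 0.98 TPM in mitosis and at 7.38, 5.69 and 7.11 TPM in the burst (2.12 ± 0.17; 1.32 at the same total, limma adjusted p = 1.19e-05). Its burst values exceeded those of asynchronous cells too, which were 2.96, 1.57 and 2.41 TPM. Btg1, an antiproliferative gene, rose from 2.13, 1.56 and 1.57 TPM to 9.47, 8.66 and 13.4 TPM (2.05). Fos, a subunit of the AP-1 factor, rose from 0.49, 0.37 and 0.20 TPM to 2.02, 2.72 and 2.19 TPM (1.29), and Egr1, a zinc finger factor, from 0.87, 0.53 and 0.51 TPM to 3.08, 4.81 and 3.83 TPM (1.58). In all 4 genes the burst and mitotic values stood apart, whereas asynchronous Fos and Egr1 reached 2.65 and 4.99 TPM in single libraries and overlapped the burst. The smallest changes of the list were those of Maff (0.72) and the kinase gene Sgk1 (0.47, and 0.15 at the same total with adjusted p = 0.061).

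Of the Myc network, 11 of 12 members were called higher (median 1.19), and at the same total 9 were higher and 1 lower (0.44). Mycn, the Myc paralogue of stem and progenitor cells, rose from 2.82, 3.35 and 3.63 TPM to 14, 19.4 and 16.0 TPM (2.03), above its asynchronous level of 6.35, 5.37 and 6.48 TPM. Mnt, which competes with Myc for its partner Max, changed by 0.84 (-0.10 at the same total, adjusted p = 0.34), and Mga, at 3.38, 2.56 and 3.88 TPM in mitosis and 4.91, 3.25 and 3.75 TPM in the burst, had overlapping groups (0.22, not called) and was the member called lower at the same total (-0.78).

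Core and naive pluripotency factors were called higher in 17 of 18 listed members (median 0.93), and at the same total 7 were higher and 5 lower (0.00). Klf4, a naive factor held up by LIF, rose from 1.08, 0.83 and 1.52 TPM to 6.66, 6.15 and 9.31 TPM (1.96; 1.10 at the same total, adjusted p = 3.70e-05), and Klf5 from 3.59, 2.59 and 4.47 TPM to 15.9, 9.09 and 14.8 TPM (1.63). Both were well above mitosis in each replicate, and Klf4, unlike Klf5, was also above its asynchronous level in each. Nanog rose from 3.45, 3.82 and 4.72 TPM to 9.82, 9.51 and 10.3 TPM (1.13), and at the same total its change was 0.05 (adjusted p = 0.60). Stat3, the factor that LIF activates, changed by 0.54 and was lower at the same total (-0.38), and without replicate 2 its rise of 0.54 was not called (adjusted p = 0.11). Prdm14, at 0.21, 0.17 and 0.25 TPM in mitosis and 0.19, 0.32 and 0.24 TPM in the burst, had overlapping groups (0.05, not called).

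Primed and general stem cell genes were called higher in 13 of 13 listed members (median 0.81), with 2 higher and 5 lower at the same total (-0.07). Zic2, a zinc finger factor of the primed state, rose from 0.73, 0.83 and 0.39 TPM to 5.94, 8.41 and 3.20 TPM (1.99), and Dppa5a from 5.12, 5.58 and 5.06 TPM to 24.2, 20.8 and 21.7 TPM (1.89). The groups of both genes stood apart, and Zic2 was lowest in replicate 3 in each. The smallest changes were those of Lin28b (0.53) and the methyltransferase gene Dnmt3a (0.33), neither of them called at the same total.

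Feedback genes of the FGF-ERK pathway, the signal that primes ES cells for differentiation, were called higher in 17 of 20 members (median 0.87; 9 higher and 4 lower at the same total, 0.03). Dusp5, a phosphatase of nuclear ERK, rose from 0.28, 0.50 and 0.37 TPM to 3.42, 3.78 and 3.81 TPM (1.76), and the inhibitor Spry2 from 3.52, 3.39 and 3.04 TPM to 14.2, 11.7 and 10.2 TPM (1.58), with no overlap. The related Spry4 stood at 7.70, 4.88 and 9.05 TPM in mitosis and at 8.10, 5.73 and 9.20 TPM in the burst, values that overlap between groups, although each pair was slightly higher (0.09, not called; -1.02 at the same total), and Fgf15 changed by 0.02.

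Cell cycle genes are taken by phase. Regulators of G1 and of entry into S phase were called higher in 24 of 27 members (median 0.96) and at the same total in 14, with 8 lower (0.49). Cdk2, the kinase that starts S phase, rose from 0.94, 0.63 and 0.96 TPM to 7.95, 5.44 and 6.58 TPM (2.05 ± 0.17; 1.24 at the same total, limma adjusted p = 1.53e-05). Its partner Ccne2 rose from 0.73, 0.76 and 0.87 TPM to 5.48, 5.09 and 6.50 TPM (1.90), and Ccne1 from 2.26, 1.99 and 3.06 TPM to 11.4, 8.13 and 10.8 TPM (1.69). All 3 genes were above both mitotic and asynchronous cells in each replicate. The D-type cyclin gene Ccnd1 rose from 0.80, 0.66 and 0.73 TPM to 4.76, 3.61 and 3.17 TPM (1.47). The D-cyclin kinase gene Cdk6, at 1.43, 1.59 and 2.42 TPM in mitosis and 1.64, 1.48 and 2.14 TPM in the burst, had overlapping groups (-0.02, not called), as had Rbl1, a pocket protein of the retinoblastoma family (-0.05, not called). At the same total both were called lower (-0.84 and -0.51).

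Genes of replication licensing and origin firing, which load the helicase onto DNA in G1, were called higher in 26 of 27 members (median 1.32), and at the same total 17 were higher and 5 lower (0.41). Cdt1, the loading factor itself, rose from 1.99, 1.93 and 2.56 TPM to 14.6, 8.45 and 12.6 TPM (2.00), and the helicase subunit gene Mcm4 from 2.89, 1.93 and 2.81 TPM to 13.7, 9.05 and 13.1 TPM (1.86). Both stood above every mitotic and every asynchronous value. The origin recognition genes Orc5 and Orc3 changed least. Orc5 was at 3.03, 2.33 and 3.15 TPM and 5.14, 2.93 and 3.70 TPM, with overlapping groups although each pair was higher (0.34, not called, adjusted p = 0.055 in limma as deposited; called without replicate 1, with either use of the library factors and with all 19 libraries, at adjusted p from 0.014 to 0.049), and Orc3 changed by 0.33, a call that was lost without any 1 of the replicates (0.20, 0.36 and 0.43). The replication clamp gene Pcna rose from 7.94, 6.24 and 9.31 TPM to 26.6, 21.1 and 28.9 TPM (1.59), against 7.22, 5.97 and 9.56 TPM in asynchronous cells.

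The table lists 4 genes of replication-dependent histones, all called higher (median 1.94) and 3 of them at the same total. Hist1h2br rose from 1.53, 0.70 and 3.23 TPM to 15.3, 11.8 and 36.7 TPM (2.92). Hist1h2bq, by far the most abundant, rose from 21.8, 27.7 and 18.2 TPM to 88.8, 60.9 and 26.0 TPM (1.19), a wide spread in which the replicate 3 burst library (50 min) lay within the mitotic range, and remained below its asynchronous 319, 268 and 287 TPM. Histone genes of 1 cluster are near-identical copies, so how reads were shared among them is uncertain. The paper plotted mRNA rather than pre-mRNA for histone genes, and these values are not read here as ongoing transcription.

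Genes of G2, the spindle and the kinetochore were called higher in 45 of 47 members (median 0.98), but at the same total 15 were higher and 8 lower (-0.05), with 24 not called. Ube2c, the ubiquitin-conjugating enzyme of the anaphase-promoting complex, rose from 1.36, 1.06 and 2.02 TPM to 8.83, 4.56 and 10.9 TPM (1.82), and the kinesin gene Kif20a from 1.32, 0.83 and 1.18 TPM to 7.0, 4.70 and 8.59 TPM (1.85). Cyclin A2 (Ccna2) rose from 1.18, 0.86 and 1.27 TPM to 4.38, 3.92 and 6.56 TPM (1.48). Cdk1, the mitotic kinase, rose from 4.91, 4.95 and 5.93 TPM to 12.3, 8.45 and 13.3 TPM (0.96; -0.15 at the same total, adjusted p = 0.23), and its partner Ccnb1 from 14.1, 11.1 and 15.1 TPM to 23.4, 18.6 and 33.9 TPM (0.84). The Aurora kinase gene Aurka rose from 1.64, 1.46 and 2.11 TPM to 5.10, 3.46 and 6.42 TPM (1.11; 0.19 at the same total, not called). In these 6 genes the groups stood apart. Ccnb2, at 1.74, 1.20 and 1.97 TPM and 2.24, 1.45 and 2.43 TPM, and the centromeric histone gene Cenpa, at 4.95, 4.82 and 6.41 TPM and 5.56, 5.16 and 6.42 TPM, had overlapping groups and were not called (0.20 and 0.08), although each pair was higher in both, and at the same total both were lower (-0.62 and -1.0). With its own variance alone Ccnb2 was called higher (limma adjusted p = 0.046).

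Many promoters of genes that peak in G2 and mitosis hold the element TTTGAA, known as the cell cycle genes homology region, through which the DREAM complex and MYB-MuvB repress or activate them. Of the 47 listed members 38 had a promoter in RefSeq (GRCm38.p6, 250 bases before to 50 after the start), and 27 of these (71.1%) held TTTGAA on either strand, compared with 11.3% of 7952 listed genes with a promoter. The pentamer CCAAT, searched on both strands, stood beside it in 24 of the 38, compared with 4.99% of all promoters. The promoters of 5 genes with the motif are shown because these genes span the range of the list, from Ube2c, among the strongest risers, through Aurka and Cdk1 to Ccnb2 and Cenpa, whose burst and mitotic values overlapped. Each is written 5′ to 3′ on the strand of the gene, and capitals mark TTTGAA or its reverse complement TTCAAA.
Ube2c (chr2:164769679-164769978, plus strand): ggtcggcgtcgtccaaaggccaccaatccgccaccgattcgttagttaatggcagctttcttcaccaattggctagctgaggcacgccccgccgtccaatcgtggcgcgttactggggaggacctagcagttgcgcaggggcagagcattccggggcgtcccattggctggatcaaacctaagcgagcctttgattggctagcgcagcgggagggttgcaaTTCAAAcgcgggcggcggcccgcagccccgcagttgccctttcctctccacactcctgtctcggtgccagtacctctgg
Aurka (chr2:172370521-172370820, minus strand): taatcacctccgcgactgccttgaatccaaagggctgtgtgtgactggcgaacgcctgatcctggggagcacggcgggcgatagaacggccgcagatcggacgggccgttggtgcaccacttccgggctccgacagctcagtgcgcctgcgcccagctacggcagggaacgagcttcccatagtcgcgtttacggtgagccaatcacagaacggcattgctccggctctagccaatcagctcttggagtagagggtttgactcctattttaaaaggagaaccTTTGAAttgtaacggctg
Cdk1 (chr10:69352863-69353162, minus strand): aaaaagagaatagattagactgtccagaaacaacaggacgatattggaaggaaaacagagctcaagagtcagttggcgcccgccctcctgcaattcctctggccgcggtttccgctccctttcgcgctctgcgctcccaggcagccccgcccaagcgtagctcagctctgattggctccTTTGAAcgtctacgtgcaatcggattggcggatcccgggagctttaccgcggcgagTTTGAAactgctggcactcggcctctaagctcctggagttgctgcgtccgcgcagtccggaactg
Ccnb2 (chr9:70421505-70421804, minus strand): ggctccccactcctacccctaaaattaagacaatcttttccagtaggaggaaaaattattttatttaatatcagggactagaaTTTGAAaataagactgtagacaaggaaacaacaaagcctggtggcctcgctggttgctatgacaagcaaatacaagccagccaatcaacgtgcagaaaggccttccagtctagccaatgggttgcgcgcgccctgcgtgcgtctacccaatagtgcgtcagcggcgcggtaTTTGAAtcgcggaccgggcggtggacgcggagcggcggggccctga
Cenpa (chr5:30666636-30666935, plus strand): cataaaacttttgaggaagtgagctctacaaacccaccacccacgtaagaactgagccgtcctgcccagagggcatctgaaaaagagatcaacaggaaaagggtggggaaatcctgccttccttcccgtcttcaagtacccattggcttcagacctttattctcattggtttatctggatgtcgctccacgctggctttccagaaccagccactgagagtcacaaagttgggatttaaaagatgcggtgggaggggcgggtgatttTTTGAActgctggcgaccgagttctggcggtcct

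Counted from the transcript start as 0, the motif begins at -29 in Ube2c, at 32 in Aurka, at -71 and -15 in Cdk1, at -167 and 4 in Ccnb2 and at 16 in Cenpa. The median log2 fold change was 0.98 over the 27 G2/M genes with TTTGAA and 1.00 over the 11 without it, and at the same total -0.08 and 0.10. Over all promoters the medians were 0.71 with and 0.71 without. These are descriptions of letters in a window, with no test.

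Among genes of the gene expression machinery, those of SR and hnRNP splicing factors were called higher in 32 of 32 members (median 1.29; 16 higher and 5 lower at the same total, 0.22). Srsf5 rose from 6.27, 3.82 and 5.40 TPM to 26.9, 20.0 and 31.2 TPM (2.13) and Srsf2 from 7.94, 10.3 and 7.82 TPM to 44.9, 36.6 and 40.9 TPM (2.12), both clear of their asynchronous values of at most 14 and 27.3 TPM. The smallest changes were those of Srsf10 (0.61, and -0.57 at the same total) and of Srsf12 (0.23), whose call was lost without replicate 2 (0.18).

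Of RNA polymerase II, general factor and pause release genes, 49 of 50 were called higher (median 1.06; 22 higher and 11 lower at the same total, 0.14). Gtf2f1, a subunit of TFIIF, rose from 1.64, 1.06 and 2.05 TPM to 9.78, 8.49 and 12.3 TPM (2.12), above asynchronous values of at most 2.03 TPM. Polr2g rose from 1.36, 0.96 and 1.38 TPM to 8.87, 6.01 and 7.64 TPM (1.92), the largest subunit gene Polr2a from 4.46, 4.19 and 5.59 TPM to 12.2, 11.7 and 14.1 TPM (1.25; 0.15 at the same total, not called) and the pause release kinase gene Cdk9 from 2.86, 2.56 and 3.40 TPM to 11.7, 9.37 and 11.3 TPM (1.58). None of these groups overlapped. Mnat1, which assembles the TFIIH kinase, stood at 1.60, 1.83 and 2.19 TPM and at 1.64, 1.52 and 2.04 TPM (-0.07, not called; called lower at the same total, -0.90), and Gtf2h2 changed by 0.37, a call that was lost without replicate 2 (0.36) or 3 (0.48).

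Ribosomal protein genes were the largest list, and 76 of 79 were called higher and 1 lower (median 1.04). At the same total 25 were higher and 32 lower (-0.07), although they are short, with a median span of 3.24 kb, and genes of that size otherwise rose more than the bulk: the median of their values less the median of all genes of the same size class was -0.39. Rps12 rose from 1.43, 3.69 and 1.66 TPM to 22.5, 15.2 and 12.1 TPM (2.46) and Rps21 from 1.57, 2.29 and 2.56 TPM to 16.6, 12.6 and 15.4 TPM (2.34). Their burst and mitotic values did not overlap, and asynchronous Rps12, at 15.6, 19.4 and 21.9 TPM, lay below the burst value of replicate 1 and above those of replicates 2 and 3. Rpl24, at 1.81, 1.13 and 1.91 TPM and 1.29, 1.03 and 2.43 TPM, had overlapping groups (-0.04, not called; called lower at the same total, -0.82), and the member called lower was Rps10. Many ribosomal protein genes have processed pseudogenes, and reads shared with these make the values of single genes uncertain.

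Ribosome biogenesis genes were called higher in 45 of 45 members (median 1.09; 18 higher and 15 lower at the same total, 0.09). Gnl3, the gene of nucleostemin, rose from 7.94, 6.48 and 7.11 TPM to 27.2, 21.1 and 24.1 TPM (1.62), and Utp6 and the nucleolin gene Ncl rose by 1.61 and 1.45, whereas Rrp1b (0.39) and Ddx10 (0.31) changed little and were lower at the same total (-0.74 and -0.43). The rise of Ddx10 was not called without any 1 of the replicates (0.18, 0.34 and 0.41), nor that of Rrp1b without replicate 2 (0.49) or 3 (0.41). Translation initiation factors were called higher in 36 of 38 members and lower in 1 (median 0.99; 11 higher and 10 lower at the same total, -0.02). Eif4a1, the helicase that opens mRNA for scanning, rose from 7.53, 6.88 and 7.93 TPM to 40.3, 33.0 and 37.1 TPM (2.16), with no overlap. Eif4g3, the member called lower (-0.29), stood at 0.84, 1.99 and 0.87 TPM and at 0.53, 1.20 and 0.66 TPM, values that overlap between groups and are lower in each pair, and lost its call without replicate 2 (-0.22) or 3 (-0.35).

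Stress and checkpoint genes had medians above that of all genes at the same total. The p53 targets were called higher in 26 of 26 members (median 1.48), and at the same total 16 were higher and 2 lower (0.33). Gadd45b rose from 0.56, 0.90 and 1.10 TPM to 5.56, 9.69 and 9.65 TPM (2.30) and Bbc3, the gene of the apoptosis inducer PUMA, from 2.06, 1.30 and 1.63 TPM to 11.0, 10.0 and 10.5 TPM (2.12). Both were also far above asynchronous cells, at most 1.11 and 1.95 TPM. Rrm2b (0.48; 0.02 at the same total, not called) and Trp53i11 (0.51) had the smallest changes of the list, and that of Trp53i11 was not called without replicate 2 (0.48, adjusted p = 0.13). Heat shock chaperones were called higher in 27 of 29 members (median 1.22; 15 higher and 5 lower at the same total, 0.25). Hspb1 rose from 1.74, 1.93 and 1.69 TPM to 9.89, 8.91 and 11.8 TPM (2.00), Dnajb9, a chaperone of the endoplasmic reticulum, from 1.29, 1.03 and 1.01 TPM to 6.47, 5.73 and 8.83 TPM (1.91) and the constitutive Hspa8 from 1.18, 1.46 and 1.69 TPM to 7.42, 6.58 and 10.4 TPM (1.88), all without overlap. Hspa4, at 6.86, 6.41 and 8.07 TPM and 10.6, 7.11 and 9.86 TPM, had overlapping groups (0.32, not called, but called with all 19 libraries at a limma adjusted p of 0.017; -0.81 at the same total).

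Among chromatin and architecture genes, those of the Polycomb complexes were called higher in 32 of 32 members (median 1.02; 15 higher and 9 lower at the same total, 0.16), led by Bmi1, at 0.63, 0.17 and 0.53 TPM and 5.25, 3.89 and 3.09 TPM (1.81), and Pcgf1 (1.63), with Phf19 (0.29) and Phc2 (0.21) changing least and the call of Phc2 lost without any 1 of the replicates (0.17, 0.25 and 0.21). Bmi1 starts 786 bases past the end of Commd3 on the same strand. Of Ctcf and the cohesin genes 12 of 14 were called higher (0.73), and at the same total 2 were higher and 6 lower (-0.12). Esco2, the acetyltransferase that makes cohesion stable in S phase, rose from 2.54, 1.46 and 3.01 TPM to 10.7, 7.67 and 12.5 TPM (1.76). Ctcf itself rose from 2.86, 2.89 and 3.23 TPM to 6.66, 5.02 and 5.13 TPM (0.72; -0.30 at the same total), and Pds5a (0.28) and Stag1 (0.15) were not called. The nuclear pore and lamina list had 35 of 39 members called higher (0.79), and 5 higher and 15 lower at the same total (-0.13). Nup62, a protein of the central channel, departed from its list, rising from 0.35, 0.80 and 1.15 TPM to 12.4, 7.25 and 8.17 TPM (2.53), while Nup210 stood at 0.63, 0.60 and 0.65 TPM and 0.65, 0.42 and 0.63 TPM (-0.05, not called; called lower at the same total, -0.56).

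Actin cytoskeleton and SRF or YAP target genes were called higher in 21 of 23 members (median 0.74; 8 higher and 7 lower at the same total, -0.04). Actg1, a cytoplasmic actin gene, rose from 1.67, 4.22 and 1.94 TPM to 17.5, 14.7 and 12.6 TPM (2.20) and Actb from 7.70, 7.77 and 8.60 TPM to 19.6, 14.4 and 15.5 TPM (0.94), whereas the transcription factor gene Tead1 (0.23) was not called. The nuclear genes of oxidative phosphorylation were called higher in 70 of 74 members (median 1.00), with 30 higher and 12 lower at the same total (0.12). Cox6a1 rose from 1.32, 1.30 and 1.80 TPM to 12.7, 7.46 and 9.36 TPM (2.11) and Ndufv3 from 0.98, 0.73 and 1.35 TPM to 7.50, 4.99 and 6.66 TPM (1.87). Ndufc2, at 0.59, 0.50 and 0.98 TPM and 0.46, 0.42 and 0.82 TPM, had overlapping groups (-0.11, not called; called lower at the same total, -0.61).

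The length of a gene went with how much it rose. Of the listed genes 9900 had a span in Gencode vM21. The median log2 fold change was 0.97 for 1093 genes under 5 kb, 0.92 for 1387 genes of 5 to 10 kb, 0.85 for 2072 genes of 10 to 20 kb and 0.72 for 2875 genes of 20 to 50 kb. It was 0.50 for 1415 genes of 50 to 100 kb, 0.26 for 744 genes of 100 to 200 kb and 0.06 for 314 genes over 200 kb. The share called higher went from 93.6% in the shortest class to 20.1% in the longest, and at the same total from 58% called higher and 11.7% lower to 1.59% higher and 88.5% lower. Within each pair the order held, from 1.07 to 0.18 in replicate 1, 0.92 to -0.0031 in replicate 2 and 0.95 to 0.03 in replicate 3. The shortest class exceeded the longest by 0.90, 0.92 and 0.92 in these pairs, and the replicates differed in the middle of the range. In the fit this gap was 0.90, and it was also 0.90 with libraries brought to a common factor. It was 0.49 when each library was divided by its own factor and 1.58 with a pseudocount of 0.1. Genes of 50 to 100 kb had risen by 0.80 in replicate 1, by 0.42 in replicate 2 and by 0.32 in replicate 3 (50 min). Mitotic levels do not follow this order, the class medians lying between 0.66 and 1.10 TPM. Across genes, which are not independent replicates and share a library, Spearman's rho of span and change was -0.29, -0.45 and -0.52 in replicates 1, 2 and 3, given as a description over 9900 genes.

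**Figure D4:**
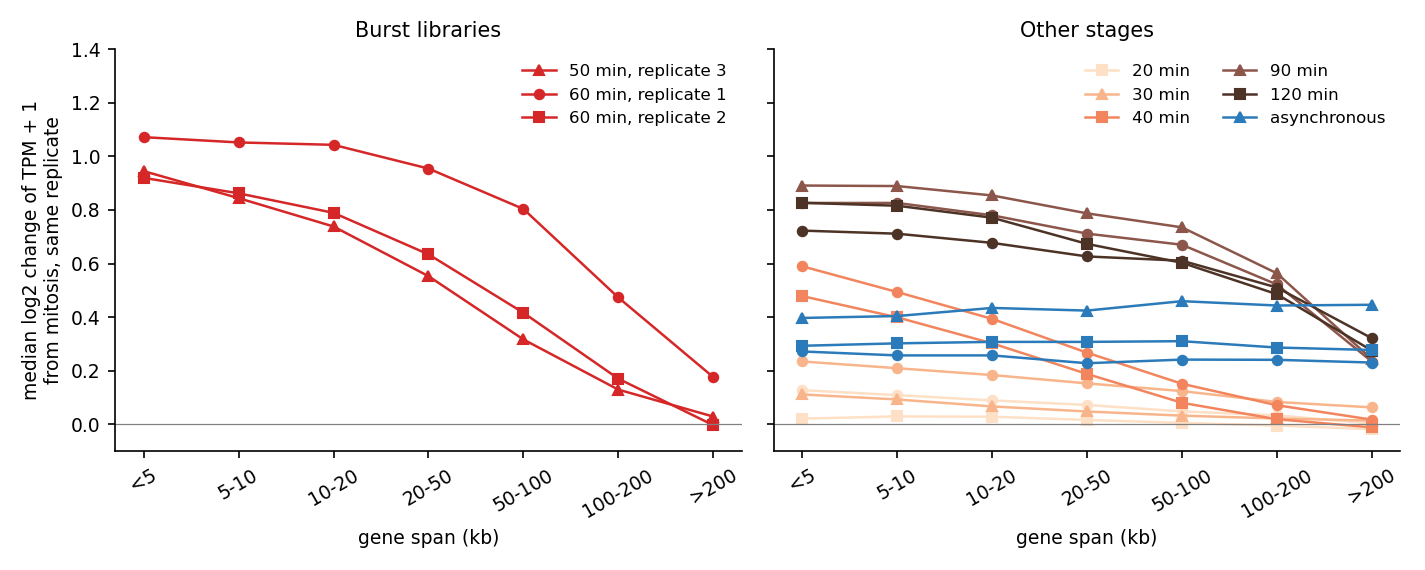
Median log2 change of TPM + 1 from the mitotic library of the same replicate (vertical axis) by class of gene span in kb (horizontal axis), 1 line per library, for the 3 burst libraries (left) and the other stages of CCNA-GFP (right). All stages share the mitotic libraries; in the burst the lines fall from 0.92 to 1.07 under 5 kb to at most 0.18 over 200 kb, and those of asynchronous cells are flat.

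The same classes at other stages, all measured against the same mitotic libraries, are given side by side. The shortest class exceeded the longest by 0.12 and 0.04 at 20 min, 0.17 and 0.10 at 30 min and 0.57 and 0.49 at 40 min. The gap was widest in the burst libraries, was 0.59 and 0.65 at 90 min and 0.40 and 0.55 at 120 min, and lay between -0.05 and 0.04 in asynchronous cells. In the longest class the median was 0.23 and 0.24 at 90 min and 0.32 and 0.28 at 120 min, above the 0.18, -0.0031 and 0.03 of the burst.

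The lists differ in the length of their genes, so each member's change at the same total was also read against the median of all genes of its size class. On this reading the medians of 4 of the function lists turned sign: oxidative phosphorylation from 0.12 to -0.04, ribosome biogenesis from 0.09 to -0.0043, G2 and spindle genes from -0.05 to 0.06 and Ctcf with cohesin from -0.12 to 0.03. That of the ES cell markers went from 0.05 to -0.19, that of immediate early genes from 0.64 to 0.40 and that of splicing factors from 0.22 to 0.06.

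Exceptions to the order were present at both ends, chosen here after their values were seen. Of 1058 genes of at least 100 kb, 45 were higher at the same total in all 3 pairs and called. Jak1, the kinase of cytokine receptors, spans 113 kb and rose from 0.45, 0.50 and 0.53 TPM to 4.91, 3.39 and 2.06 TPM (log2 fold change 1.52; 0.87 at the same total). Sertad2 spans 110 kb and rose from 0.49, 0.96 and 0.87 TPM to 4.49, 4.45 and 2.80 TPM (1.46; 0.71), and Cnnm2 (119 kb) by 1.55 (0.58). In both Jak1 and Sertad2 every burst value was above every mitotic one, and replicate 3, at 50 min, was the lowest of the burst. At the other end, 120 genes under 5 kb were lower at the same total in all 3 pairs and called. Rpl13a, the most abundant of those named, stood at 162, 147 and 118 TPM in mitosis and at 204, 173 and 145 TPM in the burst (0.29; -0.96 at the same total), and the SoxC factor gene Sox12 at 12.1, 7.94 and 11.0 TPM and 14.3, 9.69 and 12.0 TPM (0.20, not called; -0.96). Their groups overlapped, although both were higher in each pair.

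Several of the genes with the steepest rise start just past the end of another listed gene. Of the 10 named risers, Cd68, Polg2 and Dvl2 start under 1 kb from the end of a listed gene on the same strand (782 bases from Eif4a1, 817 from Ddx5 and 585 from Phf23), and Rbm4 and Tmppe overlap a listed gene. Of the 30 genes with the largest change under the same rule, 8 (26.7%) start under 1 kb and 12 (40%) under 5 kb from such an end, compared with 2.86% and 11.0% of 9858 genes with a listed neighbour and with 5.38% and 16.9% of genes under 20 kb. Among the 100 largest changes the shares were nearer to these, at 10.1% and 22.2%. The pre-mRNA isoform used for counting spans a whole gene, and RNA of the upstream gene that runs past its end and the gene's own pre-mRNA cannot be told apart in these values. Over all genes with a neighbour, the median change was 0.89 for 282 genes under 1 kb from the upstream end, 0.81 at 1 to 5 kb, 0.73 at 5 to 50 kb and 0.67 above 50 kb, and the median span of these 4 classes rose with distance as well, from 7.75 to 28.0 kb. The 92 genes that overlap the upstream gene, the class of Rbm4 and Tmppe, had the lowest median (0.60, and -0.09 at the same total) with a median span of 9.61 kb.

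**Figure D5:**
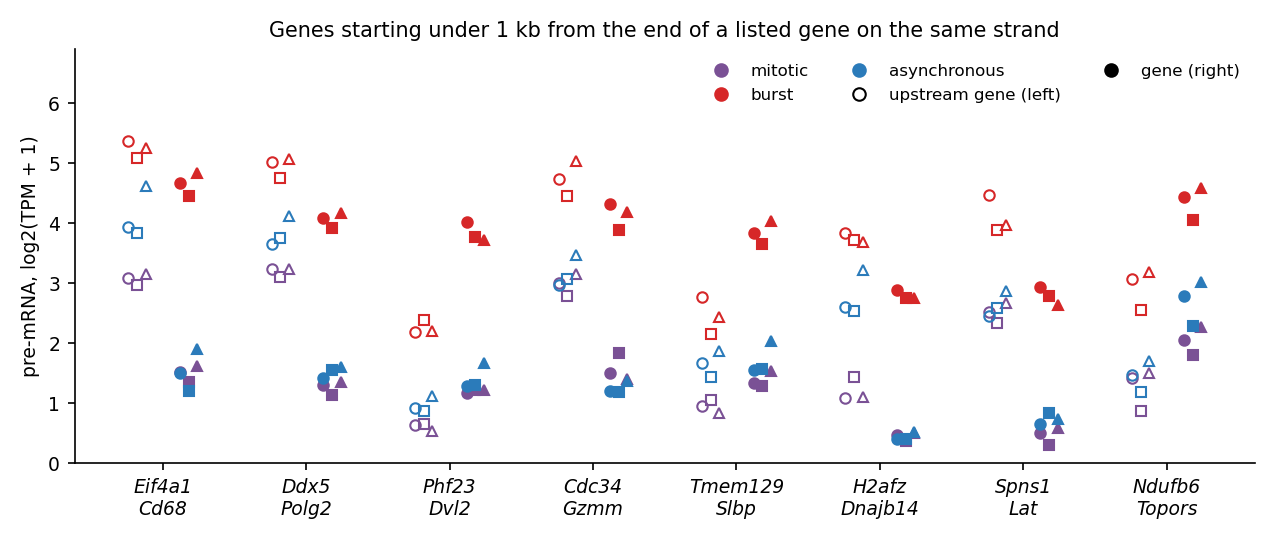
Pre-mRNA as log2(TPM + 1) (vertical axis) in mitotic (purple), burst (red) and asynchronous (blue) libraries for the 8 genes among the 30 largest changes that start under 1 kb from the end of a listed gene on the same strand (filled), each beside that upstream gene (open), with circles, squares and triangles for replicates 1, 2 and 3. In all 8 pairs of neighbours both genes are higher in the burst than in mitosis, by 1.51 to 2.54 for the upstream gene and 2.32 to 3.15 for the other.

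The upstream genes were higher in the burst too, as were 90.6% of all genes in all 3 pairs. Eif4a1 rose by 2.16, Ddx5, an RNA helicase, by 1.75 (from 8.40, 7.61 and 8.41 TPM to 31.3, 25.9 and 32.4 TPM) and Phf23 by 1.66. The other pairs were Cdc34 (1.76) and Gzmm (2.55), Tmem129 (1.51) and Slbp (2.45), H2afz (2.54) and Dnajb14 (2.35), Spns1 (1.60) and Lat (2.33), and Ndufb6 (1.67) and Topors (2.32). The downstream genes were chosen for their change, so the sizes within a pair are a description. Gzmm and Lat, known from lymphocytes, were low in mitosis (at most 2.56 and 0.51 TPM) and in asynchronous cells (at most 1.60 and 0.78 TPM), and in the burst reached 18.9, 13.8 and 17.3 TPM and 6.70, 5.94 and 5.21 TPM.

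Features of the promoter and of the chromosome went with smaller differences than gene length did. The median change was 0.39 for 232 genes whose promoter has under 45% GC, 0.62 at 45 to 55%, 0.77 at 55 to 65% and 0.71 above 65%. Of all promoters 11.1% held CACGTG, the E-box that Myc and its relatives bind, and these genes had a median of 0.85 against 0.70 without it. CCAAT was found in 40.1% (0.78 against 0.67) and GGGCGG, the GC box that Sp1 binds, in 68.0% (0.76 against 0.61), each searched on both strands. TATAAA, the TATA box, was found in 6.21% (0.70 against 0.71). Chromosome medians ran from 0.60 on chromosome 14 to 0.82 on chromosome 17, apart from 4 genes of chromosome Y at 0.45.

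The burst was also set against asynchronous cells, a comparison that shares the burst libraries with the one above. Library medians of log2(TPM + 1) were 1.22, 1.24 and 1.53 in asynchronous cells, below all burst libraries (exact two-sided permutation p = 0.1, the smallest possible), and the median change of all genes was 0.39. Limma called 4555 genes (46.0%) higher and 501 (5.05%) lower, and 5818 genes (58.7%) were higher in all 3 pairs against 1019 (10.3%) lower. At the same total 2952 genes (29.8%) were called higher and 3135 (31.6%) lower. These counts lean on single libraries and on the shared variance: without replicate 2, 1160 genes were called higher and 38 lower, and with each gene's own variance alone limma's fit gave 9 and 0 (2852 and 291 at an unadjusted p under 0.05).

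Cd68 led this comparison as well (3.12), followed by Gzmm (2.88). Dll1, a ligand of Notch, stood at 0.26, 0.21 and 0.26 TPM in asynchronous cells, 0.49, 0.37 and 0.56 TPM in mitosis and 9.21, 7.28 and 6.13 TPM in the burst (2.76 against asynchronous cells). Ddit3, the stress factor CHOP, was at 2.18, 1.66 and 3.52 TPM in asynchronous cells and at 20.4, 17.3 and 25 TPM in the burst (2.69), and 1700001P01Rik rose by 2.75. For these genes the burst values were higher than all others. Among the lists, p53 targets had 24 of 26 members higher than in asynchronous cells and 0 lower (median 1.15), immediate early genes 14 of 17 and 0 lower (0.95) and replication licensing 18 of 27 and 0 lower (1.04), whereas ribosomal proteins had 12 of 79 higher and 2 lower (0.22) and primed and general stem cell genes 2 of 13 higher (0.20). At the same total p53 targets had 20 higher and 0 lower (0.59), immediate early genes 11 and 0 (0.55) and replication licensing 17 and 5 (0.50). Ribosomal proteins had 3 higher and 45 lower (-0.37) and primed and general stem cell genes 2 and 5 (-0.24).

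Lower than in asynchronous cells were Rpl24 (4.79, 5.87 and 6.19 TPM in asynchronous cells against 1.29, 1.03 and 2.43 TPM in the burst; -1.39), Gtf3c2, a subunit of the polymerase III factor TFIIIC (-1.33), Triml1 (-1.31), Lefty1, an inhibitor of Nodal (-1.22), and Cobl, an actin nucleator gene of 228 kb (-1.14). Gtf3c2 had nonetheless risen from mitosis, from 0.10, 0.10 and 0 TPM to 1.22, 0.46 and 1.27 TPM. Lefty1 was at 2.76, 4.42 and 1.51 TPM in asynchronous cells and at 0.50, 1.20 and 0.24 TPM in the burst, where its values overlapped those of mitosis (0.08, not called). By length, the median difference from asynchronous cells went from 0.64 under 5 kb to -0.25 over 200 kb, where 2.87% of genes were called higher and 34.1% lower.

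The matched CTCF-AID libraries without IAA, in a table of their own, give the same contrast in cells that the comparison did not use. No test was made across the tables. Limma called 8236 of 10237 genes (80.5%) higher and 296 (2.89%) lower, and at the same total 3614 (35.3%) higher and 2729 (26.7%) lower. All 10 named risers were called higher there, from Cd68 (2.71), Dvl2 (2.70) and Ckb (2.59) to Rbm4 (0.94), which in this line stood at 2.98, 0.81 and 2.33 TPM in mitosis and was not listed at 0. Of the 9 genes that fell, 8 are listed in that table, and 7 of them were called lower, among them Nedd4 (-0.97), Triml1 (-0.83), Rian (-0.79) and Rps10 (-0.69), Insl3 (-0.19) being the exception. The class medians by gene length went from 0.92 under 5 kb to -0.03 over 200 kb. Immediate early genes had 18 of 18 listed members called higher and p53 targets 26 of 26, beside 80.5% of all genes. At the same total they had 15 higher and 0 lower (median 0.67) and 21 and 0 (0.61). The medians of some lists had the other sign than in CCNA-GFP on that scale. These were splicing factors (-0.05, with 9 higher and 9 lower), ribosome biogenesis (-0.13), heat shock chaperones (-0.02) and FGF-ERK feedback (-0.03). The actin cytoskeleton and SRF or YAP list went from -0.04 to 0.15. Rpl24, not called in CCNA-GFP, was lower in CTCF-AID (-0.71).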

How the data were processed

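Per the study's methods, ribo-depleted, stranded, paired-end RNA-seq libraries were aligned by the authors to mm10 with STAR and quantified with RSEM on Gencode vM12, to which a pre-mRNA isoform spanning each gene had been added. The authors deposited TPM of that isoform, filtered at a mean above 0.5 TPM in asynchronous cells or at 2 or more post-mitotic time points. Within a library all values under 5 TPM are multiples of 1 step (0.0264 to 0.0381 TPM in the 6 libraries) to within 0.05 of a step, as if TPM rounded to 2 decimals had been multiplied by a factor that differs between libraries and that the sources used here do not name. TPM hold no counts, so depth and counting error are unknown and no count test was run. Not used were 6 columns of the CTCF-AID data with no readable sample.

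Fold changes were computed here on log2(TPM + 1), which understates the change of low genes, with limma 3.58.1 (lmFit, eBayes with a trend) in R 4.3.3, a term for the replicate (the block), and p-values adjusted by Benjamini-Hochberg over all listed genes of a table, called at an adjusted p under 0.05. Equal replicate numbers pair the libraries: deviations from the group means correlated at 0.17, 0.74 and 0.43 between burst and mitotic libraries of replicates 1, 2 and 3, although burst replicate 1 correlated more with mitotic replicate 3 (0.31) than with its own. The fit of the 6 libraries has 2 residual degrees of freedom and an infinite prior, so its p-values and SEs rest on the spread shared by all genes. A second fit brought each library to the same total, and further fits took asynchronous cells or the CTCF-AID libraries. Single values were compared by exact tests in Python 3.11.15 with scipy 1.17.1. Classes by span, neighbour and promoter are medians with no test. Spans come from Gencode vM21 (9900 of 9911 symbols matched) and promoters from RefSeq (7952 matched), both on GRCm38.

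The genes and lists were chosen with earlier results of these data known. Named by rule were the 10 largest risers called, higher in all 3 pairs and with at least 2 TPM in the burst; the genes called lower, lower in all 3 pairs and with at least 2 TPM in mitosis; the 2 highest and 2 lowest members of each list; 20 fixed genes, of which 18 are listed (Sox2 and Junb are not); and the 5 highest and 5 lowest against asynchronous cells. Of these, 1 gene is not reported here. Alternatives were no block, a pseudocount of 0.1, a mean of at least 1 TPM, other scalings, all 19 CCNA-GFP libraries and each replicate left out. The common factor, the fits without a shared variance, the CTCF-AID fit at the same total, the neighbour distances and the TTTGAA search were chosen after seeing the data.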

Additional observations from a re-analysis of the deposited data

Results flagged for a closer look

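Genes that moved one way in every CCNA-GFP pair and the other way in every CTCF-AID pair without IAA were looked for among the named genes, and 3 were found. Cenpa changed by 0.075 in CCNA-GFP and by -0.36 in CTCF-AID, Hspa4 by 0.32 and -0.12, and Spry4 by 0.093 and -0.60 (log2 of TPM + 1, burst against mitosis). All 3 pairs were higher in CCNA-GFP and all 3 lower in CTCF-AID for each gene. These signs are those of the scale as deposited, and at the same total all 3 genes were called lower in CCNA-GFP (-1.0, -0.81 and -1.02). The listed TPM of CTCF-AID summed to 20943, 18606 and 23302 in mitosis and to 39173, 38416 and 43370 in the burst. In CCNA-GFP the sums were 14734, 13747 and 17245 and 42576, 30992 and 36035. The part of these totals in the opposite signs was not tested. The difference between the lines was not tested, since the tables were made separately, and the line, the reporter and the degron cannot be told apart. None of the 3 changes was called in CCNA-GFP, and those of Cenpa and Spry4 were called lower in CTCF-AID. Of 9574 genes in both tables, 71 moved in this way and 2 in the reverse way.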

How the results depend on the processing

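The pairing of the libraries by replicate is in the fits. Without the replicate block, 7883 genes were called higher and 20 lower against mitosis as deposited, 2689 and 2657 at the same total, and in CTCF-AID 188 were called lower. Among the named genes 11 lost their call without the block: Orc3, Rrp1b, Ddx10, Eif4g3, Gtf2h2, Dnajb4, Phc2, Triml1, Nedd4, Rian and Notum.

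From the scale as deposited to the same total, the calls went from 8315 to 3305 higher and from 42 to 3236 lower against mitosis, to 2952 and 3135 against asynchronous cells, and to 3614 and 2729 in CTCF-AID. The median of all genes went to 0.0059, the medians of genes of <5, 5–10 and 10–20 kb to 0.32, 0.24 and 0.13, and the gap between the shortest and longest class to 0.80. Reversed at the same total were the medians of genes of 20–50 (-0.020), 50–100 (-0.21), 100–200 (-0.37) and >200 kb (-0.48) and those of the lists primed and general stem cell genes (-0.071), G2/M regulators and spindle (-0.051), cytosolic ribosomal proteins (-0.070), translation initiation factors (-0.022), actin cytoskeleton and SRF or YAP targets (-0.039), Ctcf and cohesin (-0.12) and nuclear pore and lamina (-0.13). So were, among the named genes, Stat3 (-0.38), Prdm14 (-0.19), Lin28b (-0.12), Dnmt3a (-0.071), Mnt (-0.10), Mga (-0.78), Orc5 (-0.63), Orc3 (-0.57), Ccnb2 (-0.62), Cenpa (-1.0), Rrp1b (-0.74), Ddx10 (-0.43), Eif2b3 (-0.61), Srsf10 (-0.57), Gtf2h2 (-0.53), Hspa4 (-0.81), Dnajb4 (-0.34), Trp53i11 (-0.32), Tead1 (-0.79), Hist1h2bq (-0.026), Pds5a (-0.74), Stag1 (-0.70), Phf19 (-0.058), Phc2 (-0.24), Spry4 (-1.02), Fgf15 (-0.43), Nup37 (-0.75), Ndufa13 (-0.64), Ccnb1 (-0.35), Cdk1 (-0.15), Ctcf (-0.30), Actb (-0.21) and Lefty1 (-0.38). Among the named genes that kept their sign, 6 lost their call at the same total (Sgk1, Srsf12, Rrm2b, Nanog, Aurka and Polr2a). In the same group 7 were newly called, all lower (Cdk6, Rbl1, Rpl24, Mnat1, Nup210, Ndufc2 and Cobl). Of the reversed genes, Lin28b, Dnmt3a, Mnt, Phf19, Hist1h2bq, Cdk1, Ccnb1 and Actb also lost their call. The other reversed genes listed here were called lower, among them Prdm14, Mga, Orc5, Ccnb2, Cenpa, Eif2b3, Hspa4 and Tead1, which were not called as deposited. The same held for Pds5a, Stag1, Spry4, Fgf15, Nup37, Ndufa13 and Lefty1. On this scale a gene that rose less than the bulk is negative by construction. With each library divided by its own factor the median was 0.36 and the gap by length 0.49. With libraries brought to a common factor, a scaling chosen after seeing the data, the median was 0.68, the gap 0.90, and 76 genes were called lower.

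Among other settings, all 19 libraries gave 68 genes lower. A pseudocount of 0.1 gave a median of 1.17 and a gap of 1.58. A mean of at least 1 TPM gave 16 genes lower against mitosis, 238 against asynchronous cells and 192 in CTCF-AID, a median of 0.90, medians of 1.19, 1.10 and 1.02 in the 3 shortest classes and a gap of 1.09; the cause was not tested. With each gene's own variance, also chosen after seeing the data, there were 3829 higher against mitosis, 850 and 1241 at the same total, 9 higher and 0 lower against asynchronous cells (2852 and 291 at an unadjusted p under 0.05) and 100 lower in CTCF-AID, and 32 of the 124 named genes lost their call against mitosis while 1, Ccnb2, gained one. Leaving out each replicate in turn gave 13 to 73 genes lower against mitosis, 1160 to 4346 higher and 38 to 972 lower against asynchronous cells, 175 to 364 lower in CTCF-AID and a gap of 0.91 to 0.92 by length. Without replicate 2 the fewest genes were called lower against mitosis (13) and without replicate 1 the most (73). TPM hold no counts, so which low genes depth limits is unknown.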
